A study of Mus musculus with 6 samples.

Results

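The genes of prostaglandin synthesis, reception and inactivation were examined in primary cultured mouse RTECs with and without TGF-β1. The group holds 10 of the 46517 genes counted: the cyclooxygenases Ptgs1 and Ptgs2, the terminal synthases Ptges, Ptges2 and Ptgis, the PGE2 receptors Ptger1, Ptger2, Ptger3 and Ptger4, and the inactivating enzyme Hpgd. They were chosen by symbol, and each symbol matched 1 gene identifier once version numbers were dropped. RTECs are epithelial cells grown from dissociated kidney, here from wild-type FvB mice, whose age the sample labels give as 4 to 6 weeks. The paper's methods give a slightly younger age range for its primary cultures and describe the mice as male. The cells were grown in RPMI with fetal bovine serum and EGF to 70% confluence and then kept without serum for 24 h. The 3 TGF-β1 cultures then received 50 ng/ml TGF-β1 for 24 h, and the vehicle of the 3 CTL cultures is not given in the sources used here. Nothing in the labels says whether the cultures came from separate animals or pooled ones. The p-values therefore measure only the spread between these 6 samples, which may be technical in part, although replicate 2 differed from the others in Y-linked transcripts.

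Prostaglandins are short-lived lipid signals. A phospholipase frees arachidonic acid from membranes, a cyclooxygenase turns it into PGH2, and a terminal synthase makes PGE2, prostacyclin or another prostanoid from PGH2. PGE2 acts on the EP receptors, of which the Ptger2 and Ptger4 products raise cAMP, the Ptger3 product mostly lowers it and the Ptger1 product raises intracellular calcium. In the kidney PGE2 regulates salt and water transport, renin release and blood flow, and 15-hydroxyprostaglandin dehydrogenase, the product of Hpgd, starts its inactivation.

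Read counts on genes summed to 28313080 to 34183497 per library, so that 3 counts corresponded to 0.0878 to 0.106 CPM (counts scaled to a common library total). Normalized counts are counts after TMM scaling to the geometric mean library. Same-numbered CTL and TGF-β1 cultures deviated from their group means together, so the tests are given without and, where the call differs, with the replicate number as a block. That pairing was inferred from these data and is not stated in the sources used here. Replicate 2 stood apart in both groups. The Y-linked genes Ddx3y, Eif2s3y, Kdm5d and Uty summed to 154.4 and 136.2 CPM in replicate 2 of CTL and TGF-β1 and to 0.0627 to 0.177 CPM in the other 4 cultures, although the study describes male mice. Summed epithelial markers (Epcam, Krt8, Krt18, Cdh1, Cdh16 and Pax8) ran from 980 to 2620 CPM in CTL and from 805 to 2080 CPM with TGF-β1, lowest in replicate 2 of each group, and Cdh16 and Pax8 of the 6 were lower with TGF-β1 (log2 fold changes of -1.50 and -0.77, adjusted p = 0.00922 and 0.00436, edgeR). With the block Epcam (-0.15, adjusted p = 0.0376, edgeR) and Cdh1 (-0.18, adjusted p = 0.0195, edgeR) were lower as well, 4 of the 6 in all. Proximal tubule markers summed to 79.0 to 95.3 CPM in CTL and to 34 to 47.9 CPM with TGF-β1, almost all of it from Lrp2, Cubn and Aqp1, while the transporter genes Slc34a1, Slc5a2 and Slc22a6 had 0 to 10 counts in each library. Of the 10 TGF-β response genes listed as a check, 6 were higher and 0 lower with TGF-β1 without the block, and 8 were higher and 1 lower with it (edgeR).

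Ptgs2 stands apart among the 10 genes in level and Ptges and Ptger3 in their change. The 250 bases upstream of the annotated transcription start of these 3 genes are therefore printed first. The sequences are RefSeq's for GRCm38.p6, written 5′ to 3′ on the strand of the gene, and 8 of the 10 genes had a window in the table used. Capitals mark matches to the motifs searched on both strands over 300 bases (250 before and 50 after the start): the SMAD box CAGAC, the AP-1 site TGANTCA with N for any base, the CRE core ACGTCA, the E-box CACGTG, the C/EBP palindrome TTGCGCAA, the RBPJ site GTGGGAA, the TATA box TATAAA and the GC box GGGCGG. The Ptgs2 stretch is chr1:150099781-150100030 on the plus strand, and 183 of its 250 bases also lie in exons of Ptgs2os, a non-coding gene on the opposite strand. The Ptges stretch is chr2:30903298-30903547 on the minus strand, within the Ptges locus of the GENCODE annotation, which has further transcripts that start upstream. The Ptger3 stretch is chr3:157566626-157566875 on the plus strand. The last line gives the first 30 bases of Ptgs2 after the annotated start, chr1:150100031-150100060.
Ptgs2 upstream: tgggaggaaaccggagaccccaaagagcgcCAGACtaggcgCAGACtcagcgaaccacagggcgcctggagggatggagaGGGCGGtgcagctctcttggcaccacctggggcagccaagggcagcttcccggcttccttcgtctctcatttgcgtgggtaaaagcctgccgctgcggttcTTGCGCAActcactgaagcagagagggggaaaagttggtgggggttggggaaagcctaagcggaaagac
Ptges upstream: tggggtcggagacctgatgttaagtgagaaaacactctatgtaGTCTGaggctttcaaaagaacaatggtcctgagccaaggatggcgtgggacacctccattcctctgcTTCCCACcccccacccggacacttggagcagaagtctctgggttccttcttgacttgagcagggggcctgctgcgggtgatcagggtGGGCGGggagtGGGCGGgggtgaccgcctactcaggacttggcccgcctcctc
Ptger3 upstream: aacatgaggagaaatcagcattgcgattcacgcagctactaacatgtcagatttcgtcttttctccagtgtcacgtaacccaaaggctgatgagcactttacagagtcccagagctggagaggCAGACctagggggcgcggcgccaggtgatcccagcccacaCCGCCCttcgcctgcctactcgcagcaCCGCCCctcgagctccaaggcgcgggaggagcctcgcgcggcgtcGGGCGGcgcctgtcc
Ptgs2 first bases: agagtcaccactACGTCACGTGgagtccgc

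The Ptgs2 window was the only one of the 8 with the C/EBP palindrome, 69 to 62 bases upstream, a motif held by 0.183% of the 32851 windows in the table. It was also the only one with the CRE core, at bases 13 to 18 after the start, which 7.51% of all windows hold, and this match shares 2 bases with an E-box at bases 17 to 22 (7.15% of windows). The Ptges window held the RBPJ site on the minus strand, 140 to 134 bases upstream, a motif in 6.38% of windows. The SMAD box was in 7 of the 8 windows and in 49.6% of all windows, and the GC box was in 5 of the 8 and in 35.7% of all. The TATA box letters were found for Hpgd alone, at bases 5 to 10 after the start (13.6% of all windows), and the AP-1 site for 0 of the 8 (7.81% of all windows). Positions count from the annotated start, and the start used in these cells was not measured. These matches describe the letters, and no binding was measured here.

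Of the 10 genes, 8 had enough counts for the test, and Ptger2 and Hpgd did not. Ptges and Ptger3 fell with TGF-β1, and 0 genes of the group rose at an adjusted p-value under 0.05 (edgeR's quasi-likelihood test, Benjamini-Hochberg adjustment over 15862 genes). Across all genes tested 5.00% were called higher and 6.69% lower, where called means past that threshold. At an unadjusted p-value under 0.05 there were 3 of the 8, Ptgs2 among them, and DESeq2 and limma-voom also called 0 of the 8 higher. With library size alone as the scaling, 25.7% of all called genes were higher in place of 42.8%, while the 8 genes kept the same calls. With the replicate block Ptgs2 rose and Ptgs1, Ptges and Ptger3 fell, against 15.1% of all genes called higher and 19.1% called lower with the block. The CTL and TGF-β1 ranges did not overlap for 3 of the 8, Ptgs2 (higher), Ptges and Ptger3 (lower), against 17.2% of all genes apart in the higher direction and 18.0% in the lower. The median log2 fold change of the 8 genes was -0.05, and that of all genes tested was -0.0028.

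**Figure D1:**
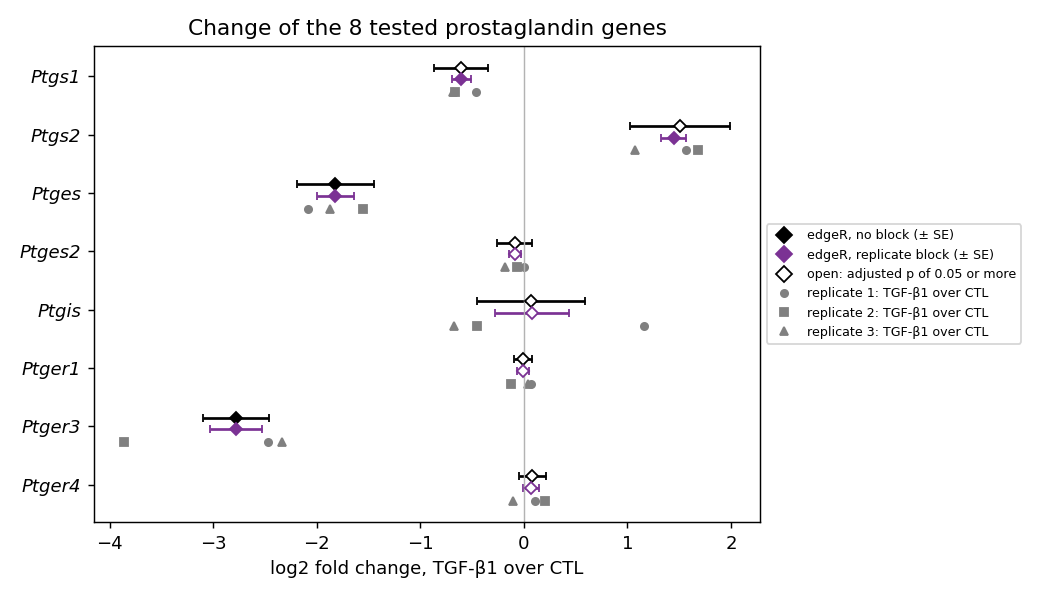
Log2 fold change of TGF-β1 over CTL for the 8 tested genes (horizontal axis), with standard errors from edgeR, without (black) and with (purple) the replicate number as a block, filled where the adjusted p was under 0.05, and the same-numbered pairs as grey points. Ptger3 (-2.78) and Ptges (-1.82) lie farthest below 0 and Ptgs2 (1.51) farthest above it, and the block narrows the error of Ptgs2 from 0.482 to 0.121.

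Ptgs2, which encodes the inducible cyclooxygenase COX-2, lies on chromosome 1 of GRCm38 (150100031 to 150108227, plus strand; ENSMUSG00000032487.8). Its normalized counts were 1891, 4197 and 2406 in CTL replicates 1, 2 and 3 and 5626, 13480 and 5042 in the TGF-β1 cultures with the same numbers. Every TGF-β1 culture was above every CTL culture, and replicate 2 was the highest of both groups. The means were 2831 ± 1210 in CTL and 8050 ± 4710 with TGF-β1 (SD, n = 3 each), a 2.84-fold difference. Ptgs2 did not pass without the block, at a log2 fold change of 1.51 ± 0.482 (SE) and an adjusted p of 0.102 (edgeR). With the replicate block it did, at 1.45 ± 0.121 (SE, adjusted p = 0.000514, edgeR), and the TGF-β1 culture had 2.98, 3.21 and 2.10 times the counts of its same-numbered CTL culture. The block fit passed without either culture of number 1, 2 or 3 as well (log2 fold change 1.38, 1.32 and 1.63), a setting chosen after seeing the data. Such fits have few cultures left and take most of their error from the spread pooled over genes, so they are a weak check. Without number 3 the adjusted p was 1.52e-23 (edgeR), far under the 0.000514 with all cultures. The same limit holds for these fits wherever they are given below. Without the block, 0 of the 6 fits that left out 1 culture passed. The value fell to 0.91 without TGF-β1 replicate 2 (adjusted p = 0.18, edgeR), and without both replicate 2 cultures it was 1.31 and passed (adjusted p = 0.00517, edgeR). In such bulk cultures, more cells that express a gene and more RNA per cell cannot be told apart.

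Ptgs1 encodes COX-1, the cyclooxygenase that most tissues make without a stimulus, and lies on chromosome 2 (36230426 to 36252272, plus strand; ENSMUSG00000047250.12). It had 348.6, 478.8 and 286.8 normalized counts in CTL and 253.9, 301.4 and 178.4 with TGF-β1. The groups overlapped, since CTL replicate 3 lay below TGF-β1 replicate 2, but the TGF-β1 culture was lower in each same-numbered pair, by log2 differences of -0.46, -0.67 and -0.69. The log2 fold change was -0.61 (SE 0.259, adjusted p = 0.189, edgeR) without the block and -0.60 (SE 0.0882, adjusted p = 0.00144, edgeR) with it. The block fit again passed without the cultures of any 1 number, with log2 fold changes of -0.68, -0.56 and -0.57.

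The balance of the cyclooxygenases was read within each library, where scaling plays no part. The ratio of Ptgs2 to Ptgs1 counts was 5.42, 8.77 and 8.39 in CTL and 22.2, 44.7 and 28.3 with TGF-β1. The ranges did not overlap, and the mean log2 ratio was 2.88 ± 0.383 in CTL and 4.92 ± 0.515 with TGF-β1 (SD, n = 3 each), a difference of 2.04 (p = 0.1 by an exact permutation test over libraries, two-sided, which with 3 against 3 cannot give a smaller value). Per kb of exon, the ratio was 4.6 to 7.43 in CTL and 18.8 to 37.9 with TGF-β1, so that COX-2 mRNA exceeded COX-1 mRNA in all 6 cultures.

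**Figure D2:**
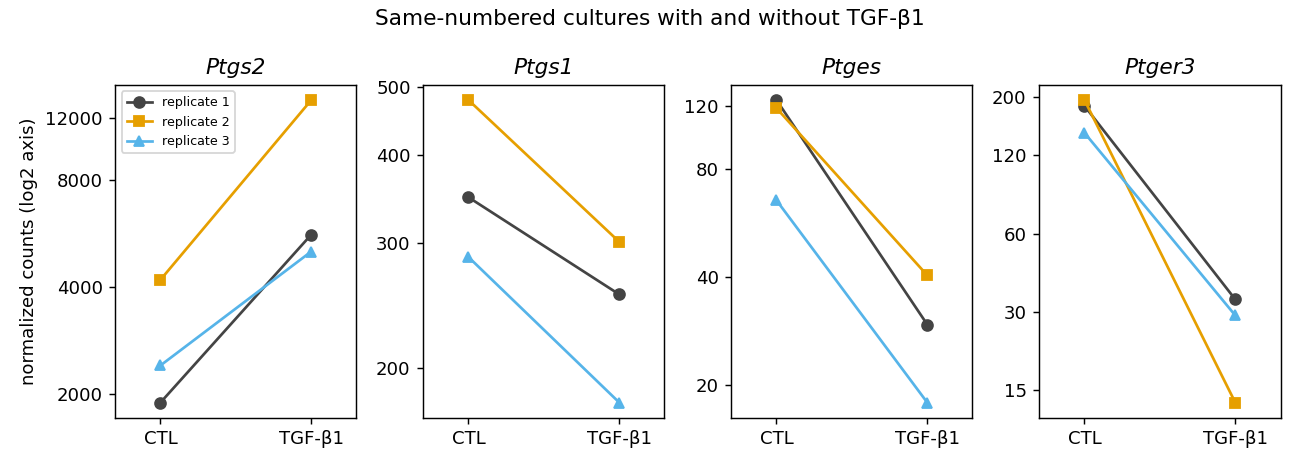
Normalized counts (log2 axis) of Ptgs2, Ptgs1, Ptges and Ptger3 in CTL and TGF-β1 cultures, with a line joining the cultures that share a replicate number. All 3 lines rise for Ptgs2 (from 1891, 4197 and 2406 to 5626, 13480 and 5042) and all 3 fall for each of the other genes.

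Ptges, the microsomal synthase that makes PGE2 together with COX-2, lies on chromosome 2 (30889471 to 30929863, minus strand; ENSMUSG00000050737.13). Its normalized counts were 124.6, 118.3 and 65.42 in CTL and 29.45, 40.4 and 17.84 with TGF-β1. The highest TGF-β1 culture stayed below the lowest CTL culture, and replicate 3 was the lowest of both groups. The means were 102.8 ± 32.5 and 29.23 ± 11.3 (SD, n = 3 each), and CTL was 3.52-fold higher. Ptges fell by 1.82 on the log2 scale (SE 0.374, adjusted p = 0.0317, edgeR), and Ptgs2 and Ptges therefore differed in opposite directions in each of the 3 same-numbered pairs. The Ptges call passed in 2 of the 6 fits without 1 culture. The adjusted p-value (edgeR) was 0.127 without CTL replicate 1, 0.0722 without CTL replicate 2, 0.119 without TGF-β1 replicate 1 and 0.0714 without TGF-β1 replicate 3. Leaving out both cultures of replicate 1 gave 0.385, and of replicate 3 gave 0.0518. With the block the adjusted p-value was 0.000213 (edgeR), and at most 0.00404 without the cultures of any 1 number.

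The other terminal synthases did not pass in either fit. Ptges2 (chromosome 2, 32395896 to 32405772, plus strand), which encodes a membrane-associated PGE synthase, had 1161, 948.9 and 1378 normalized counts in CTL and 1162, 905.3 and 1212 with TGF-β1. The groups overlapped, and the log2 fold change was -0.09 (SE 0.169, adjusted p = 0.779, edgeR). Ptgis (chromosome 2, 167191805 to 167240604, minus strand), which encodes prostacyclin synthase, had 23.18, 50.96 and 23.99 in CTL and 51.8, 37.29 and 15.02 with TGF-β1. The pairs of Ptgis did not move one way, since the TGF-β1 culture was 2.23 times its CTL culture in replicate 1 and 0.732 and 0.626 times in replicates 2 and 3. The log2 fold change of Ptgis was 0.07 (SE 0.522, adjusted p = 0.947, edgeR), and its sign turned with library size alone as the scaling (-0.0021).

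Among the PGE2 receptors, Ptger3, which encodes the EP3 receptor, had the largest fall of the group. It lies on chromosome 3 (157566892 to 157645888, plus strand; ENSMUSG00000040016.15) and had 185.4, 195.2 and 146.1 normalized counts in CTL and 33.52, 13.47 and 29.1 with TGF-β1. The groups were far apart, and replicate 2 was the highest CTL culture and the lowest TGF-β1 culture. The means were 175.6 ± 26.0 and 25.36 ± 10.5 (SD, n = 3 each), and CTL was 6.92-fold higher. Ptger3 fell by 2.78 on the log2 scale (SE 0.32, adjusted p = 0.00698, edgeR). It passed in all 6 fits without 1 culture, at adjusted p-values of 0.0084 to 0.0454 (edgeR). With replicate 1 left out of both groups the adjusted p-value was 0.232, but 0 genes of the whole table passed in that fit, against 1938 at an unadjusted p under 0.05 (edgeR). With replicate 3 left out of both it was 0.0585. With the block it was 0.000192, and at most 0.00228 without the cultures of any 1 number (edgeR).

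Ptger4, which encodes the EP4 receptor, lies on chromosome 15 (5206661 to 5244187, minus strand) and had 588.2, 624.9 and 553.9 normalized counts in CTL and 634.8, 719.9 and 514.5 with TGF-β1. The TGF-β1 cultures held both the highest and the lowest value, and the log2 fold change was 0.08 (SE 0.131, adjusted p = 0.736, edgeR). Ptger1 (EP1; chromosome 8, 83666678 to 83672753, plus strand) had 1318, 1386 and 1173 in CTL and 1380, 1272 and 1204 with TGF-β1, with a log2 fold change of -0.0086 (SE 0.084, adjusted p = 0.963, edgeR). The Ptger1 counts are uncertain, since the strand setting of the counting is not given in the sources used here and reads from the opposite strand of its locus may be among them. Ptger2 (EP2; chromosome 14, 44988195 to 45003820, plus strand) had 6, 10 and 8 counts in CTL and 4, 10 and 5 with TGF-β1, and was not tested.

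Hpgd (chromosome 8, 56294585 to 56321043, plus strand) was close to the limit of these libraries, with 1, 4 and 1 counts in CTL and 1, 3 and 0 with TGF-β1. Most of these values were at or under the floor of 3 counts, so no fold is given, and a difference between the groups was not detectable at this depth.

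**Figure D3:**
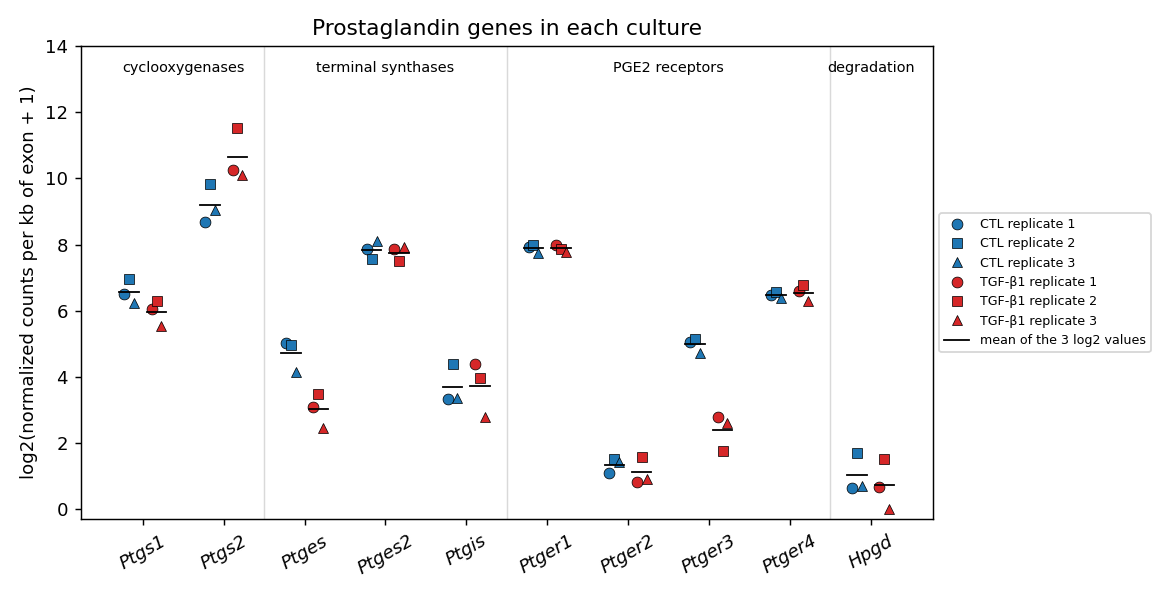
Normalized counts per kb of exon, as log2(value + 1), of the 10 genes in each of the 6 cultures, with CTL and TGF-β1 side by side and a bar at the mean of the 3 log2 values. Ptgs2 lies at the top of both groups (413 to 916 in CTL, 1100 to 2940 with TGF-β1), and Ptger2 and Hpgd lie at the bottom.

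Levels were compared between genes per kb of exon. In CTL cultures Ptgs2 led with 618 ± 264 normalized counts per kb (SD, n = 3), ahead of Ptger1 (237) and Ptges2 (230), whose ranges overlapped. Ptgs1 (95.6) and Ptger4 (88.6) came next and did not differ beyond their spread, followed by Ptger3 (30.9), Ptges (26.1) and Ptgis (12.7), each of which overlapped with its neighbour. With TGF-β1 Ptgs2 had 1760 ± 1030 per kb (SD, n = 3) and Ptger1 235, with Ptges2 at 216. Ptger4 (93.7) overlapped with Ptgs1 (63.0), and Ptgis (13.5), Ptges (7.44) and Ptger3 (4.46) again formed a chain of overlapping neighbours, now with Ptger3 as the lowest of the chain. Ptger2 (1.55 in CTL and 1.23 with TGF-β1) and Hpgd (1.17 and 0.817) were last in both groups, with overlapping ranges.

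The genes whose profile over the 6 cultures was most like that of Ptgs2 were sought among 10914 genes with a mean of at least 5 CPM, by the root mean square difference of log2(normalized counts + 0.5) centred on each gene's mean. Cthrc1, a secreted collagen-associated glycoprotein, was the closest at 0.0735, with 325.5, 613.4 and 362.0 normalized counts in CTL and 860.3, 2088 and 783.0 with TGF-β1. Inhba, the activin A subunit, followed at 0.117, with 4004, 7004 and 4695 in CTL and 11030, 23530 and 8965 with TGF-β1. Egr2, an immediate early transcription factor, was at 0.141, with 189.3, 306.7 and 194.1 in CTL and 482.4, 1054 and 426.2 with TGF-β1. Each of these genes, like Ptgs2, was highest in replicate 2 of both groups, which follows from choosing them by this profile.

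The rest of the prostanoid pathway was read from 6 lists of 45 genes, of which 31 were tested. 2 of the 31 were higher with TGF-β1 and 4 were lower, and with the replicate block 6 were higher and 11 lower. Over all 15862 genes tested 5.00% were higher and 6.69% lower, and with the block 15.1% and 19.1%, and the counts of each list below stand beside these shares. With library size alone as the scaling the split was 0 higher and 6 lower. DESeq2 gave 3 and 5, limma-voom 1 and 2, and both other filters on low counts 2 and 2, so that some of the calls ended under limma-voom and under these filters. The block fit gave 4 higher and 5 lower without both cultures of number 1, 6 and 9 without number 2, and 6 and 8 without number 3.

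Of 5 tested genes that release arachidonic acid, 0 were called by edgeR, with 1 higher and 1 lower at an unadjusted p-value under 0.05. The median log2 fold change was -0.20. DESeq2 called 1 higher, and with the block 2 rose and 1 fell. Mgll, the lipase that frees arachidonic acid from 2-arachidonoylglycerol, had 1475, 3030 and 1389 normalized counts in CTL and 4020, 7158 and 3361 with TGF-β1. Its ranges did not overlap, and its log2 fold change was 1.3 (adjusted p = 0.101, edgeR), or 1.32 with the block (adjusted p = 4.5e-06, edgeR). Pla2g4a, the cytosolic phospholipase A2, had a log2 fold change of 0.34 without the block (adjusted p = 0.261, edgeR) and with it (adjusted p = 0.000751, edgeR). The 1 that fell with the block was Pla2g6, with a log2 fold change of -0.22 without the block (adjusted p = 0.113, edgeR) and with it (adjusted p = 0.0114, edgeR). Mgll, Pla2g4a, Pla2g6 and Slco2a1 were singled out after their values were seen.

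Among the other prostanoid synthases 0 of 8 tested genes were higher and 2 were lower (median -0.31), and with the block 1 was higher and 3 were lower, against 5.00% and 6.69% of all genes, or 15.1% and 19.1% with the block. limma-voom called 1 lower. Ptgds, which makes PGD2, had 112.0, 95.18 and 110.1 normalized counts in CTL and 53.83, 37.29 and 61.02 with TGF-β1, and fell by 1.06 on the log2 scale (adjusted p = 0.029, edgeR). Cbr3, a carbonyl reductase, fell by 0.555 (adjusted p = 0.0492, edgeR). Of 5 other prostanoid receptors 1 was tested, the PGF2α receptor gene Ptgfr, with 23, 53 and 11 counts in CTL and 4, 3 and 4 with TGF-β1. It was lower (log2 fold change -2.93, adjusted p = 0.0405, edgeR), and its TGF-β1 values were close to the floor of 3 counts.

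For prostaglandin transport and later inactivation, 1 of 5 tested genes rose and 1 fell (median -0.22), and with the block 1 rose and 3 fell, against 5.00% and 6.69% of all genes, or 15.1% and 19.1% with the block. Abcc4, an exporter of prostaglandins and cyclic nucleotides, had 6909, 6512 and 7490 normalized counts in CTL and 3011, 2308 and 4066 with TGF-β1. The groups were well apart, and Abcc4 fell by 1.16 on the log2 scale (adjusted p = 0.0221, edgeR). Slco2a1, the prostaglandin uptake carrier, had 2946, 2659 and 3039 in CTL and 2046, 1166 and 2002 with TGF-β1, a log2 fold change of -0.73 (adjusted p = 0.0852, edgeR) that passed with the block (-0.76, adjusted p = 0.00739, edgeR). Ptgr1, a reductase that acts after 15-PGDH, rose by 0.504 (adjusted p = 0.0425, edgeR).

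In the list of cAMP-responsive genes 1 of 9 tested was higher and 0 lower (median 0.0064), and with the block 2 were higher and 1 lower. The higher one was Pde4d, a phosphodiesterase that degrades cAMP, with a log2 fold change of 0.57 (adjusted p = 0.0432, edgeR). In the lipoxygenase branch, which makes leukotrienes from the same arachidonic acid, 0 of 3 tested genes were called (median -0.45, with 1 lower at an unadjusted p-value under 0.05 and 0 called by DESeq2), and with the block 0 rose and 2 fell. Each of the 6 pathway genes called without the block lost its call in some of the 6 fits without 1 culture. Abcc4 passed in 3 of them, Ptgds, Ptgfr and Ptgr1 in 2 each, and Cbr3 and Pde4d in 1 each. Without CTL replicate 1, and likewise without TGF-β1 replicate 1, 0 of the 31 genes passed in either direction (edgeR). At an unadjusted p-value under 0.05 these fits had 3 and 4 higher genes and 7 lower genes each.

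**Figure D4:**
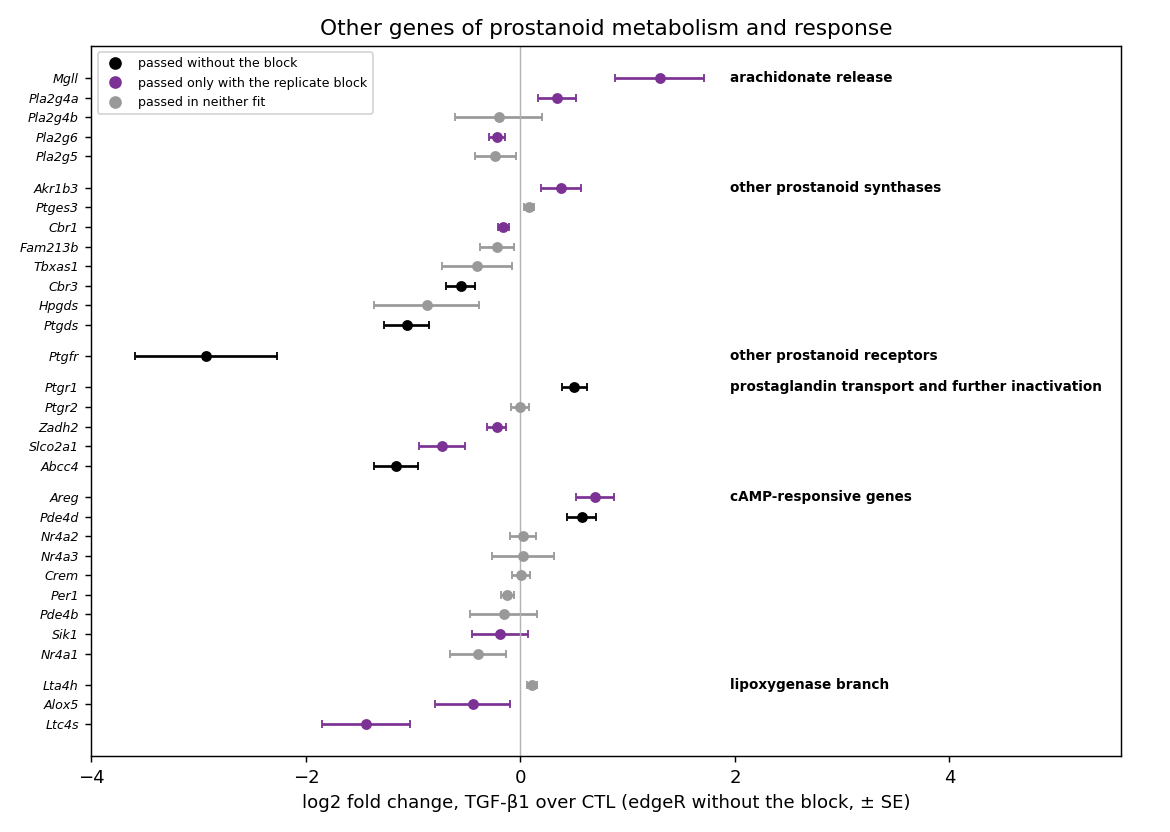
Log2 fold change of TGF-β1 over CTL (horizontal axis, edgeR without the block, with standard errors) for the 31 tested genes of the 6 lists, coloured by the fit in which they passed an adjusted p-value of 0.05. Ptgfr (-2.93), Abcc4 (-1.16) and Ptgds (-1.06) lie lowest among the genes that passed without the block, and Mgll (1.3) lies highest among those that passed with it alone.

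Markers of other cells were read beside these values. The fibroblast list (Pdgfra, Pdgfrb, Dcn, Lum, Thy1 and Postn) summed to 548 to 808 CPM in CTL and 505 to 967 CPM with TGF-β1, with 0 of 5 tested genes called by edgeR or DESeq2 without the block and 0 at an unadjusted p-value under 0.05. With the block Postn was higher (log2 fold change 0.47, adjusted p = 0.00171, edgeR), and Pdgfrb (-0.86, adjusted p = 0.000431, edgeR) and Dcn (-1.21, adjusted p = 0.0256, edgeR) were lower. The list did not follow replicate 2 in 1 direction. Pdgfrb and Dcn were highest in replicate 2 of both groups, as Ptgs2 was, whereas Postn and Thy1 were lowest there. Pdgfra was lowest in replicate 2 with TGF-β1, but in CTL replicates 1 and 2 were level (28.01 and 27.88 normalized counts). Pdgfrb had 3215, 7195 and 2162 normalized counts in CTL and 1619, 3636 and 1451 with TGF-β1, and Postn had 21490, 10480 and 14430 in CTL and 29580, 12790 and 22740 with TGF-β1. Endothelial markers stayed between 2.46 and 4.87 CPM in all 6 cultures. Leukocyte markers summed to 9.50 to 22.0 CPM in CTL and 6.53 to 18.0 CPM with TGF-β1, and 1 of 6, Csf1r, was lower. Mast cell markers summed to 5.93 to 20.5 CPM, almost all of it from Kit (189 to 700 counts), and the other 5 of the 6 had at most 3 counts in every library. Of the tubule lists, 2 of 3 tested proximal tubule genes were lower, Lrp2 (log2 fold change -0.93, adjusted p = 0.0165, edgeR) and Aqp1 (-2.91, adjusted p = 0.00919, edgeR). Collecting duct markers summed to 9.86 to 23.3 CPM in CTL and 28.8 to 56.7 CPM with TGF-β1, mostly Hsd11b2, which was called higher, while Aqp2 had 0 to 5 counts and Scnn1g was lower with the block (-1.77, adjusted p = 0.00845, edgeR). Markers of the thick ascending limb and distal tubule summed to 1.3 to 3.6 CPM, and Umod among them was lower with the block (-0.94, adjusted p = 0.0446, edgeR). The part of these cells in the values of Ptgs2, Ptges and Ptger3 was not tested.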

How the data were processed

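The authors trimmed 50-bp single-end reads with Trim Galore, aligned them to GRCm38 with STAR 2.4.1d and counted them on genes with HTSeq 0.6.1, per the submitters' processing notes. The deposited values are whole read counts per gene without normalization. The annotation release and the strand setting are not given in the sources used here. The special rows of HTSeq were left out. Of all counts, on genes and in special rows together, they held 4.16 to 4.93% (no feature), 1.88 to 1.97% (ambiguous) and 18.73 to 19.37% (not unique).

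Symbols, positions and exon lengths came from GENCODE M21 of GRCm38, which matched 46005 of 46517 identifiers. Counts were tested in R 4.3.3 with edgeR 4.0.16 (filterByExpr, TMM, robust glmQLFit and glmQLFTest, two-sided, Benjamini-Hochberg over 15862 genes, threshold 0.05). Alternatives used DESeq2 1.42.0, limma 3.58.1 (voom), other scalings and filters, the replicate block and left-out cultures. Scripts were tested on simulated data. No pair of libraries agreed within sampling noise (chi-square per degree of freedom at least 9.02). The count floor covers counting error only, whereas the standard errors and SDs include the spread between cultures. The reads had no molecular identifiers.

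Groups and replicate numbers came from the labels. Over genes, the deviations of a CTL and a TGF-β1 culture from their group means had a correlation of 0.308, 0.663 and 0.546 where the number was shared and of -0.593 to 0.198 where it was not, so the numbers were taken to pair the cultures. Deviations cancel within a group, so high values for shared numbers push the others down. For number 1 the 0.308 lay near the 0.198 of CTL replicate 1 with TGF-β1 replicate 3. The pairing was inferred from these same data, and the sources used here do not state it. The 10 genes were named by role, other pathway genes if they passed the threshold, and the 3 genes closest to Ptgs2 by profile. The members and lists were chosen with earlier results of these data known. The planned ratio of Ptges to Hpgd and the closest profiles of Hpgd were not computed, because Hpgd had 0 to 4 counts. Some items are not reported here. Figures were drawn with matplotlib 3.10.9.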

Additional observations from a re-analysis of the deposited data

How the results depend on the processing

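With the replicate number as a block, the log2 fold change was -0.60 for Ptgs1 and 1.45 for Ptgs2, both then past the threshold, and the block changed no other call of the 8 genes. It gave 2388 higher and 3037 lower genes in all, and 1 higher gene of the 8. The block was also fitted without both cultures of number 1, 2 or 3, a weak check chosen after seeing the data. It gave -0.68, -0.56 and -0.57 for Ptgs1 and 1.38, 1.32 and 1.63 for Ptgs2, past the threshold each time. It gave 1 higher gene of the 8 each time, 1026, 2288 and 2583 higher genes in all without numbers 1, 2 and 3, and 1649, 2718 and 3258 lower genes in the same order. Against 793 higher genes, DESeq2 gave 1201 and library size alone 507.

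Signs turned only for genes whose value in the main edgeR fit was near 0. Ptgis was -0.0021 with library size alone, -0.016 with limma-voom and -0.53 with the block without number 1, and Ptger1 was 0.053 with the block without number 2. Without 1 culture or both cultures of a number, values spanned -0.21 to 0.052 for Ptges2, -0.53 to 0.55 for Ptgis, -0.073 to 0.052 for Ptger1, -0.041 to 0.20 for Ptger4, -2.13 to -1.55 for Ptges, -3.02 to -2.40 for Ptger3, 0.91 to 1.91 for Ptgs2 and -0.79 to -0.38 for Ptgs1. These fits gave 0 to 1084 higher and 0 to 1290 lower genes, and 0 to 1 higher and 0 to 2 lower of the 8. They had no block, so differences between replicate numbers counted as spread. The cause of these changes was not tested. DESeq2, RLE normalization and both other filters changed no call or sign of the 8 genes, and Ptger2 and Hpgd were limited by depth.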
